A study of Mus musculus with 4 samples.

Results

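Jejunal interstitial cells of Cajal (ICC) of leptin-deficient mice were compared with those of heterozygous controls across every miRNA entry of the deposited table, as the counts of the ob/ob jejunal library over those of the ob/+ jejunal library. These are 2 of the 4 libraries of the study, which also holds the same pair from the colon. The table lists 982 miRNA entries, of which 736 are named as an arm of a hairpin (-5p or -3p), 142 carry no arm suffix and 104 are named after a whole hairpin. Of these, 322 averaged at least 10 CPM (counts per 1000000 miRNA counts) over the 4 libraries, and 320 of the 322 had a jejunal ratio, the remaining 2 having 3 counts or fewer in both jejunal libraries.

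The control mice were Lep ob/+;Kit copGFP/+, which the labels call both healthy and wild type, and the leptin-deficient mice were Lep ob/ob;Kit copGFP/+, which the labels call diabetic. Both groups were C57BL/6 and 11 to 20 weeks old, and both carried 1 copGFP reporter allele at Kit, so the controls lack 1 intact leptin allele and every animal differs from an unmodified mouse at Kit. Dissociated whole jejunum was sorted for GFP fluorescence, material of the same genotype (15 each) was pooled before sequencing, and each pool gave 1 library. No spread between animals can be measured, so the values below carry no test, and each interval is an exact 95% interval that covers counting error only.

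ICC are the pacemaker and neurotransmission cells of the gut muscle; they depend on the receptor tyrosine kinase Kit, and their loss is a known feature of diabetic gut dysmotility. Mice without leptin overeat, become obese and insulin resistant, and have raised blood glucose. A miRNA is cut from a hairpin precursor, loaded into an Argonaute protein and guided to messenger RNAs mainly by its seed, bases 2 to 8, so miRNAs with the same seed share most predicted targets.

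The files hold miRNAs and no messenger RNA, so the Kit sort itself could not be checked against Kit, and no miRNA on the lists defines ICC. Levels of miRNAs that mark smooth muscle, fibroblasts, epithelium and other cells of the gut wall are therefore given as measured. In a bulk library, fewer cells of a type and less RNA per cell cannot be told apart.

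The results turn on a few families, whose mature sequences are printed 5′ to 3′ from RefSeq (build GRCm38.p6) with the seed in capitals. The first set holds the Hox-encoded miRNAs, with the pair that filled the largest share of the control library and the family with the largest ratio.
miR-10b-5p: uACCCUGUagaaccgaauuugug
miR-10a-5p: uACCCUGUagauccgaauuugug
miR-196b-5p: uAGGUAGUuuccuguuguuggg
miR-196a-5p: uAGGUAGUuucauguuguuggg
miR-615-3p: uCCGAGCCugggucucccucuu
The miR-10 pair differs by a single base, U12A from miR-10a to miR-10b, and the miR-196 pair likewise by A12C from miR-196a to miR-196b, counted from 1 at the 5′ end. Neither difference touches the seed. miR-10b-5p lies at chr2:74726074-74726096 on the plus strand, in an intron of Hoxd3 and Hoxd4. Its near copy miR-10a-5p lies at chr11:96317186-96317208 on the plus strand, and miR-196b-5p at chr6:52230129-52230150 on the minus strand, where it overlaps an exon of a Hoxa9 transcript.

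The second set marks mesenchymal and epithelial cells, and all of its members but miR-215-5p were lower by 2-fold or more in ob/ob cells.
miR-199a-5p: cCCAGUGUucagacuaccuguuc
miR-199b-3p: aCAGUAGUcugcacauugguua
miR-214-3p: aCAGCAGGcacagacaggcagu
miR-200a-3p: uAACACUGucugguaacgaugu
miR-200b-3p: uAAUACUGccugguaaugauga
miR-200c-3p: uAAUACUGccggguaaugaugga
miR-192-5p: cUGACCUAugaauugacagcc
miR-215-5p: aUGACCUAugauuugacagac
miR-200b-3p and miR-200c-3p share a seed that miR-200a-3p lacks, and miR-192-5p and miR-215-5p share another. One of the loci of miR-199a-5p (chr1:162217844-162217866) and the locus of miR-214-3p (chr1:162223438-162223459) sit on the plus strand in the non-coding gene Dnm3os. A second locus of miR-199a-5p lies at chr9:21496537-21496559 on the minus strand, and its counts cannot be divided between them.

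The third set is from the X-linked cluster, the group that was higher in ob/ob cells, with the 2 autosomal miRNAs that share the seed of miR-351-5p.
miR-351-5p: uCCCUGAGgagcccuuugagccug
miR-125a-5p: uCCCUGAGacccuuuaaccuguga
miR-125b-5p: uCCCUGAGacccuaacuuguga
miR-351-3p: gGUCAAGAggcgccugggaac
miR-322-3p: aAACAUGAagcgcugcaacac
miR-503-3p: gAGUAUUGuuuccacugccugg
miR-542-3p: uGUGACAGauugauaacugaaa
miR-450a-5p: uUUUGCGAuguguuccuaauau
miR-351-5p lies at chrX:53053315-53053338 on the minus strand.

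The last set holds seed families whose close members differed from each other, and the pair known to target Kit.
let-7a-5p: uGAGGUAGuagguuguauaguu
let-7c-5p: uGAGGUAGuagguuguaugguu
let-7f-5p: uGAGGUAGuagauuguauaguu
miR-99a-5p: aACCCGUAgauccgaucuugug
miR-100-5p: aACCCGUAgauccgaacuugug
miR-30a-5p: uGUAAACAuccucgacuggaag
miR-30e-5p: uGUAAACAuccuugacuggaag
miR-221-3p: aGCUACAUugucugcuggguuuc
miR-222-3p: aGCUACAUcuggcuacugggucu
Within these families 1 base separates let-7a-5p from let-7c-5p (A19G), let-7a-5p from let-7f-5p (G12A), miR-99a-5p from miR-100-5p (U16A) and miR-30a-5p from miR-30e-5p (C13U). How the authors assigned reads that fit 2 such copies is not given in the sources used here, so counts of near copies are uncertain to that extent.

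The 2 libraries were of similar depth in miRNA, with 466335 counts in ob/+ and 433201 in ob/ob, but not in what else they held. miRNA made up 22.5% (22.5% to 22.6%) of the mappable reads of the ob/+ library and 12.3% (12.3% to 12.4%) of the ob/ob library. The raw reads numbered 13237163 and 19938908, and 48.0% and 58.7% of them had no adapter. A single count was worth 2.28 CPM in ob/+ and 2.37 CPM in ob/ob, and the limit that a count of 0 allows, 3 counts, was 6.84 and 7.12 CPM. CPM here carry TMM factors (trimmed mean of M-values), so a ratio compares miRNAs with the bulk of other miRNAs. Scaled to mappable reads instead, the median log2 ratio of all 320 entries moves from 0.02 to -0.80, and every log2 ratio moves by the same amount.

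The miRNA content of the ob/ob cells differed from that of the controls first in its most abundant member (Hox-encoded miR-10b-5p). This miRNA was the most abundant of the ob/+ library, at 15.2% of its miRNA counts, and ranked 12 in the ob/ob library at 1.34%. The smooth muscle miRNA miR-145a-5p took first place in ob/ob with 19.0%, against 12.4% in ob/+. Its cluster partner miR-143-3p was at 10.6% and 13.6%, and miR-10a-5p at 8.91% and 12.9%.

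A fixed total makes these shares move together, since what 1 miRNA leaves the others fill. With miR-10b-5p taken out of both totals, the share of miR-145a-5p was 14.6% in ob/+ and 19.3% in ob/ob. By the same reckoning miR-143-3p stood at 12.5% and 13.8%, and miR-10a-5p at 10.5% and 13.1%. Other abundant miRNAs held smaller shares in ob/ob: without miR-10b-5p, miR-125b-5p was at 8.53% and 6.34%, let-7c-5p at 7.51% and 5.19%, and miR-26a-5p at 5.43% and 4.18%. The 10 most abundant entries held 76.2% (76.1% to 76.4%) of the counts in ob/+ and 76.6% (76.5% to 76.8%) in ob/ob, and 9 of them were the same in both.

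**Figure D1:**
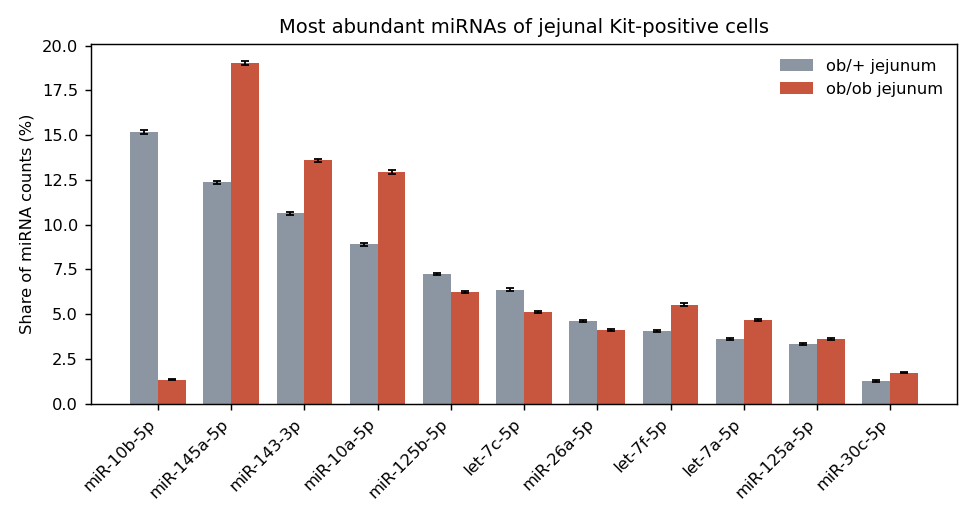
Share of the library's miRNA counts (%) of the most abundant miRNAs in the ob/+ (grey) and ob/ob (red) jejunal library; bars are 1 library each and error bars exact 95% counting intervals. miR-10b-5p goes from 15.2% to 1.34%, while miR-145a-5p goes from 12.4% to 19.0%.

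Across all entries, a difference was called where the 2 levels differed at least 2-fold. In ob/ob cells 59 of 320 entries (18.4%) were higher by that rule and 65 (20.3%) lower, while 196 lay between. With library totals that leave out miR-10b-5p the split was 46 higher and 79 lower, and scaled to mappable reads it was 20 higher and 144 lower. The counting interval lay wholly past 2-fold for 21 higher (6.56%) and 25 lower entries (7.81%), so for many of the calls counting error alone spans the threshold.

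The quartiles of the log2 ratios were -0.83 and 0.75, and the extremes -7.64 and 4.14. Of the 2-fold calls, 17 higher entries averaged under 10 CPM in the ob/+ libraries and 17 lower ones in the ob/ob libraries, so these passed the filter through the genotype in which they were high. Differences of 2-fold were rarer among abundant miRNAs. Of 19 entries with a mean of 10000 CPM or more in the 2 jejunal libraries 0 were higher and 2 lower, and of 35 between 1000 and 10000 CPM 5 were higher and 4 lower. Between 10 and 100 CPM the counts were 35 higher and 38 lower of 154, where each level rests on few counts.

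**Figure D2:**
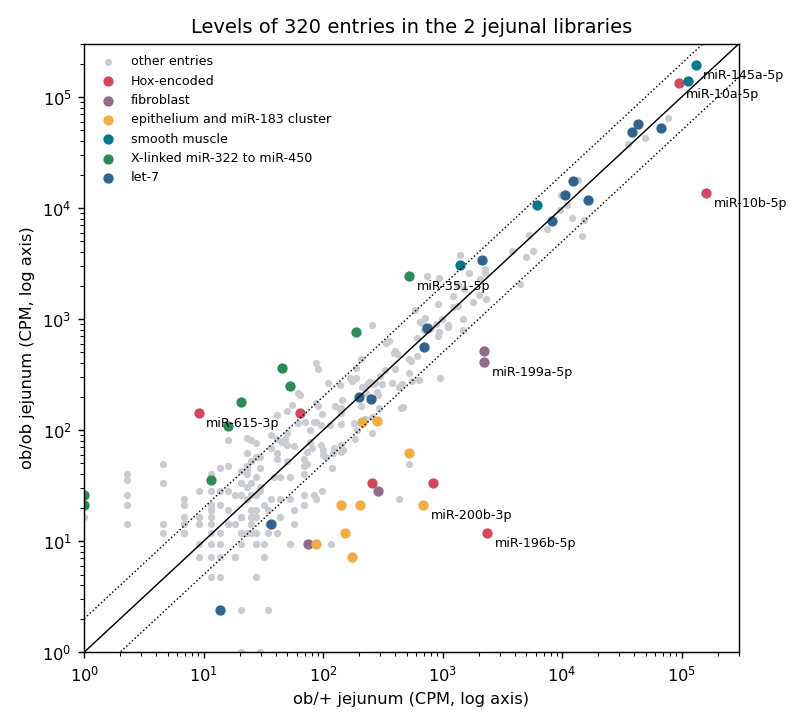
Level of each of the 320 entries with a ratio in the ob/+ (x) and ob/ob (y) jejunal library, in CPM on log axes, with miRNA lists in colour; entries with 0 counts are drawn at the axis edge, the solid line is equality and the dotted lines 2-fold. The fibroblast list, most Hox-encoded miRNAs and the epithelial miRNAs other than miR-215-5p lie below the lower dotted line and the X-linked cluster lies above the upper one.

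The Hox-encoded miRNAs, which sit among the genes that pattern the body axis, held the extreme ratios in both directions among entries at 100 CPM or more in 1 library. miR-196b-5p had 1036 counts in ob/+ and 5 in ob/ob, a level 199-fold lower (85.1 to 615), and its rank went from 29 to 292. Its near copy miR-196a-5p had 365 and 14 counts, a log2 ratio of -4.65 (-5.53 to -3.88). miR-10b-5p had 70721 and 5810 counts, a level 11.7-fold lower with a log2 ratio of -3.55 (-3.59 to -3.51), and its other arm miR-10b-3p had 112 and 14 counts, a log2 ratio of -2.94 (-3.86 to -2.14).

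The remaining members of this list did not share that direction. miR-615-3p, from an intron of Hoxc5, had 4 counts in ob/+ and 60 in ob/ob, a log2 ratio of 3.96 (2.53 to 5.89). miR-10a-3p had 28 and 60 counts, a log2 ratio of 1.16 (0.49 to 1.86). miR-10a-5p had 41530 and 56011 counts, a log2 ratio of 0.49 (0.47 to 0.51), which turns to -0.33 when scaled to mappable reads. Of 9 entries on the list 7 passed the abundance filter, 2 were higher and 4 lower, beside 18.4% and 20.3% of all entries, with a median of -2.94.

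A ratio of 2 miRNAs within a library needs no scaling. The count of miR-10b-5p was 1.70 times that of miR-10a-5p in ob/+ and 0.104 times in ob/ob, and miR-196a-5p over miR-196b-5p went from 0.352 to 2.80. Summed over the shared seed ACCCUGU, the miR-10 pair held 24.1% of the ob/+ counts and 14.3% of the ob/ob counts, a log2 ratio of -0.80 (-0.82 to -0.79). For the seed AGGUAGU of the miR-196 pair the sum was 1401 counts in ob/+ and 19 in ob/ob. The 2 copies of each pair thus carry the same seed but unequal ratios.

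miRNAs that mark fibroblasts and other mesenchyme were lower in ob/ob cells. miR-199a-5p had 975 and 173 counts, a log2 ratio of -2.44 (-2.68 to -2.20), and miR-199b-3p had 970 and 217, a log2 ratio of -2.10 (-2.32 to -1.89). miR-214-3p, whose host also holds a copy of miR-199a-5p, had 125 and 12 counts, a log2 ratio of -3.32 (-4.32 to -2.47). Of 5 listed entries 4 passed, and these 4 were lower by 2-fold or more, beside 20.3% of all entries. The summed level of the list was 4812 CPM in ob/+ and 963 CPM in ob/ob.

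Epithelial miRNAs were lower as well. miR-200b-3p, a repressor of the mesenchymal transcription factors Zeb1 and Zeb2, had 302 counts in ob/+ and 9 in ob/ob, a log2 ratio of -5.01 (-6.16 to -4.07). Its neighbour on chromosome 4, miR-200a-3p, had 67 and 5 counts (log2 ratio -3.69), and miR-200c-3p had 89 and 9 (log2 ratio -3.25). miR-429-3p had 9 counts in ob/+ and 0 in ob/ob, and miR-141-3p 2 and 0; neither passed the filter. The summed level of the 9 listed entries of the family was 1091 CPM in ob/+ and 61.7 CPM in ob/ob.

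The miRNAs typical of intestinal and liver epithelium had smaller but same-signed ratios. miR-192-5p had 230 and 26 counts, a log2 ratio of -3.09 (-3.73 to -2.50), while its seed partner miR-215-5p had 92 and 50, a log2 ratio of -0.82 (-1.35 to -0.31). miR-194-5p, which is made together with both, had 124 and 51 counts, a log2 ratio of -1.23 (-1.73 to -0.74). The list summed to 1031 CPM and 311 CPM.

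Among miRNAs known from sensory, endocrine or liver cells, some were lower and some were not. The cluster of miR-183-5p, miR-96-5p and miR-182-5p on chromosome 6, known from sensory cells, had 76 and 3, 38 and 4, and 62 and 9 counts, and summed to 176 counts in ob/+ and 16 in ob/ob. miR-183-5p rests on 3 counts in ob/ob and was 24.4-fold lower (8.03 to 121). Both miR-183-5p and miR-96-5p were under 10 CPM in each ob/ob library, so they passed the filter through ob/+, where they are high. The hepatocyte miRNA miR-122-5p had 190 and 10 counts, a log2 ratio of -4.19 (-5.28 to -3.28). miR-375-3p, an endocrine and epithelial miRNA, had 51 and 4 counts, a log2 ratio of -3.62 (-5.55 to -2.17). The more abundant endocrine miRNAs lay on the other side, miR-7a-5p with 310 and 430 counts (log2 ratio 0.53) and miR-7b-5p with 282 and 397 (log2 ratio 0.55), both negative when scaled to mappable reads, and the endocrine list summed to 1469 CPM and 1971 CPM.

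Markers of other cells in the gut wall had ratios of either sign. The smooth muscle list summed to 252188 CPM in ob/+ and 348776 CPM in ob/ob; 1 of its 4 passing entries was higher by 2-fold and its median was 0.68, but -0.14 when scaled to mappable reads. That entry was miR-143-5p, with 617 and 1297 counts and a log2 ratio of 1.13 (0.99 to 1.27). The striated muscle miRNA miR-133a-3p had 156 and 268 counts, a log2 ratio of 0.84 (0.55 to 1.13), which is 0.02 when scaled to mappable reads. Only 2 of the 7 listed striated muscle entries passed the filter, so this value does not describe the rest of the list. The endothelial miRNA miR-126a-3p had 228 and 139 counts, a log2 ratio of -0.66 (-0.97 to -0.35). Its other arm, miR-126a-5p, had 42 and 47 counts, a log2 ratio of 0.22 (-0.41 to 0.85). Of 16 listed neuronal and glial entries 9 passed, 2 higher and 1 lower, beside 18.4% higher and 20.3% lower of all entries, and the list summed to 849 CPM and 932 CPM; miR-9-5p, a neural miRNA, had 60 and 65 counts. The erythroid list summed to 1401 CPM and 2035 CPM, most of it miR-486-5p, with 593 and 846 counts and a log2 ratio of 0.57 that turns to -0.25 when scaled to mappable reads. The 2 arms of miR-486 made up all 858 counts of the list in ob/ob but not all 614 in ob/+. The remaining listed entries were thus counted in ob/+ only, against the direction of the sum. The miR-486 arms were the only passing entries of the 5 listed, with miR-486-3p at 5 and 12 counts, so the sum describes miR-486 and not the other members.

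Leukocyte miRNAs were mixed. The 2 arms of miR-342 were higher, with 259 and 507 counts of miR-342-3p (log2 ratio 1.03) and 18 and 58 of miR-342-5p (log2 ratio 1.74). miR-142-5p, found across blood lineages, had 11 and 22 counts (log2 ratio 1.06), whereas the lymphocyte miRNA miR-150-5p had 25 and 8 (log2 ratio -1.59) and the myeloid miR-223-3p had 8 and 3 (log2 ratio -1.36). The list summed to 744 CPM and 1426 CPM, most of it miR-342. The part that a different mix of sorted cells had in any of the ratios was not tested.

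**Figure D3:**
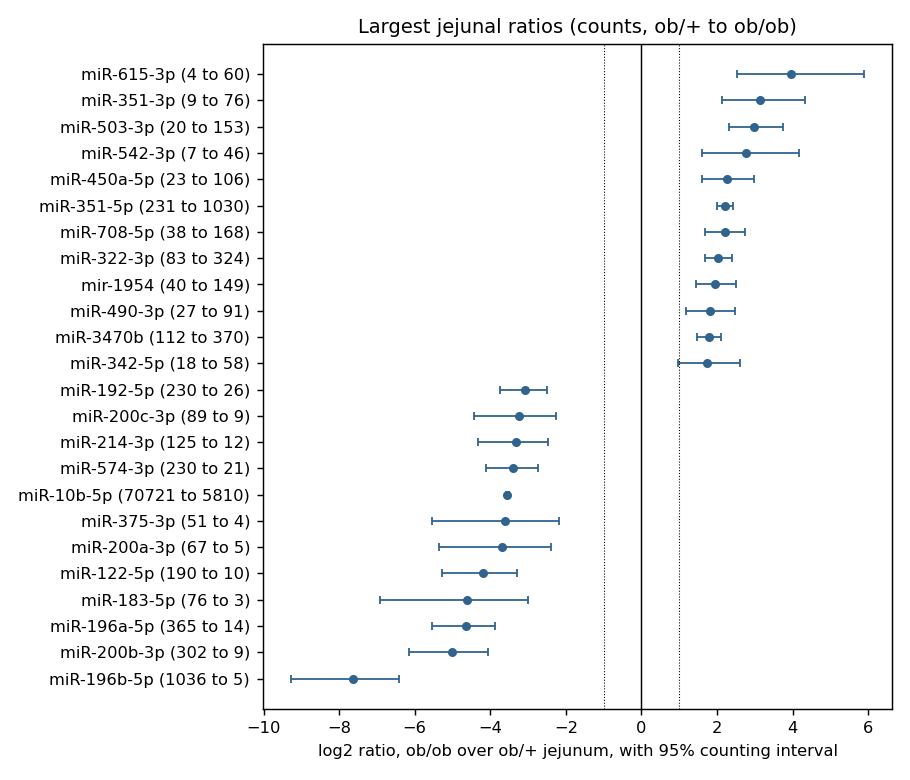
Log2 ratio (ob/ob over ob/+ jejunum) of the 12 miRNAs with the largest ratio in each direction among those at 100 CPM or more in 1 library; bars are exact 95% counting intervals, dotted lines mark 2-fold, and the counts stand beside each name. miR-196b-5p, at 1036 and 5 counts, and miR-615-3p, at 4 and 60, are the extremes.

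The cluster on the X chromosome that runs from miR-322 to miR-450, known as a regulator of cell cycle exit and muscle differentiation, was higher in ob/ob cells in every entry that passed. The most abundant, miR-351-5p, had 231 counts in ob/+ and 1030 in ob/ob, a log2 ratio of 2.21 (2.01 to 2.43). miR-322-3p had 83 and 324 counts, a log2 ratio of 2.02 (1.67 to 2.39). miR-503-3p had 20 and 153 counts, a log2 ratio of 2.99 (2.31 to 3.74).

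The less abundant members pointed the same way. miR-351-3p had 9 and 76 counts (log2 ratio 3.13), miR-542-3p 7 and 46 (2.77), miR-450a-5p 23 and 106 (2.26) and miR-322-5p 5 and 15 (1.64). miR-450b-5p had 0 counts in ob/+ and 11 in ob/ob, 3.81-fold higher with ob/+ set at the 3-count floor, and its interval began at a log2 ratio of 1.38. miR-450b-3p had 0 and 9, 3.12-fold higher on the same floor, and its interval began at 1.04. Of 12 listed entries 9 passed, and these 9 were higher, beside 18.4% of all entries, with a median of 2.21, and of 1.39 when scaled to mappable reads. The count is in part fixed by the filter, since both arms of miR-450b, at 0 counts in the ob/+ jejunum, passed through the ob/ob libraries, where they are high. These 9 entries lie in a run with gaps under 10000 bases, and together had 378 counts in ob/+ and 1770 in ob/ob.

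The seed of miR-351-5p is shared with 2 far more abundant miRNAs. miR-125a-5p had 15488 and 15748 counts, a log2 ratio of 0.08, and miR-125b-5p had 33764 and 27078, a log2 ratio of -0.26. With miR-351-5p included, the seed CCCUGAG held 10.6% of the ob/+ counts and 10.1% of the ob/ob counts.

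Other miRNAs that were higher came from several families. miR-30e-5p, from an intron of Nfyc, had 617 and 1580 counts, a log2 ratio of 1.41 (1.28 to 1.55), whereas miR-30b-5p had 884 and 693 (log2 ratio -0.29). miR-146a-5p, which damps NF-kB signalling, had 410 and 980 counts, a log2 ratio of 1.31 (1.15 to 1.48), while its seed partner miR-146b-5p had 100 and 90 (log2 ratio -0.10). miR-708-5p, in an intron of Tenm4, had 38 and 168 counts, a log2 ratio of 2.20 (1.69 to 2.75). miR-490-3p lies in Chrm2, the gene of the M2 muscarinic acetylcholine receptor of gut smooth muscle, and had 27 and 91 counts, a log2 ratio of 1.81 (1.18 to 2.49).

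The miRNAs known to target Kit messenger RNA were lower for the abundant pair. miR-221-3p had 414 and 125 counts, a log2 ratio of -1.67 (-1.97 to -1.38), and miR-222-3p had 204 and 68, a log2 ratio of -1.53 (-1.95 to -1.13). Their shared seed summed to 618 and 193 counts. miR-193b-3p had 9 counts and 1 count, a log2 ratio of -3.11 (-8.57 to -0.26), and miR-218-5p had 12 and 32, a log2 ratio of 1.47 (0.48 to 2.56). Of the 10 listed entries 6 passed, 1 higher and 3 lower, beside 18.4% and 20.3% of all entries, with a median of -0.94. Kit itself was not analysed here.

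Near-identical members of a family had unlike ratios. let-7c-5p had 29703 and 22191 counts, a log2 ratio of -0.36 (-0.39 to -0.34), while let-7f-5p had 18864 and 23977, a log2 ratio of 0.40 (0.37 to 0.43), which is -0.42 when scaled to mappable reads. The count of let-7c-5p was 1.57 times that of let-7f-5p in ob/+ and 0.926 times in ob/ob, a comparison free of scaling. Summed over the let-7 seed GAGGUAG the share was 18.8% and 20.6%. Of 14 passing entries on the let-7 list 0 were higher and 2 lower, both of them rare 3p arms, beside 18.4% and 20.3% of all entries.

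The miR-99 and miR-100 family showed the same kind of split. miR-99a-5p had 6460 and 2362 counts, a log2 ratio of -1.40 (-1.46 to -1.33), while miR-100-5p had 4209 and 4029, a log2 ratio of -0.01. Their ratio within a library went from 1.53 to 0.586. miR-99a-5p lies with a copy of let-7c in the Mir99ahg transcript on chromosome 16, and miR-99a-5p and let-7c-5p were lower to unlike degrees. A second locus of let-7c-5p lies on chromosome 15, and its counts cannot be divided between the loci. miR-30a-5p over miR-30e-5p went from 1.18 to 0.700.

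The 2 arms of a hairpin come from the same precursor, and both passed the filter for 56 hairpins. The log2 ratios of the arms had a Pearson correlation of 0.670 and a Spearman correlation of 0.588 over these 56, given as a description. The arms had the same sign in 39, differed by a median of 0.60 and differed by 1 or more in 15. In 0 of the 56 was 1 arm 2-fold higher and the other 2-fold lower.

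Among the most counted hairpins with unequal arms, miR-335, in an intron of the imprinted gene Mest, had 434 and 426 counts of its 5p arm, a log2 ratio of 0.03 (-0.17 to 0.23). Its 3p arm had 196 and 66 counts, a log2 ratio of -1.51 (-1.94 to -1.10). The 5p arm of miR-221 had 91 and 69 counts, a log2 ratio of -0.34 (-0.82 to 0.12), beside -1.67 for the 3p arm. let-7e-5p had 943 and 1434 counts (log2 ratio 0.66), and let-7e-3p 16 and 6 (log2 ratio -1.36), an arm with few counts whose interval includes equality.

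The list of miR-574, miR-335, miR-204 and miR-151, known as intronic miRNAs, held mostly lower entries, unlike the intronic miR-30e-5p, miR-708-5p and miR-490-3p above. miR-574-3p, in Fam114a1, had 230 and 21 counts, a log2 ratio of -3.40 (-4.12 to -2.75), and its 5p arm had 37 and 4 (log2 ratio -3.15). Of its 7 entries all passed, and 5 were lower, beside 20.3% of all entries, with a median of -1.43. In the imprinted Dlk1-Dio3 region, 6 of 10 passing proximal entries were lower and 1 higher, and 13 of 30 distal entries were lower and 1 higher, beside 20.3% of all entries lower.

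Both Dlk1-Dio3 lists were lower in their sums, the distal one less so. The abundant proximal member miR-127-3p had 1939 and 872 counts, a log2 ratio of -1.10 (-1.21 to -0.98), and miR-434-3p had 276 and 119 (log2 ratio -1.16). The abundant distal member miR-541-5p had 1665 and 1711 counts, a log2 ratio of 0.10. The proximal list summed to 5688 CPM and 2664 CPM, and the distal list to 6309 CPM and 5426 CPM.

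Of the broadly expressed families, 5 lists had no member past 2-fold, while the miR-30, miR-99, miR-17-92, miR-148 and let-7 lists each had at least 1. Those 5, the miR-29, miR-26, miR-23/27/24, miR-181 and miR-15/16 lists, had medians of 0.69, -0.21, 0.23, 0.29 and 0.06, all of them negative when scaled to mappable reads. In summed level all 5 were lower in ob/ob, since a median gives rare and abundant members equal weight. In the same order the sums were 1579 and 1160, 51296 and 44971, 38183 and 33417, 7361 and 5846, and 1807 and 1751 CPM. miR-21a-5p, raised in many stressed and fibrotic tissues, had 650 and 334 counts, a log2 ratio of -0.90 (-1.10 to -0.71). miR-23a-3p had 6616 and 3278 counts, a log2 ratio of -0.96 (-1.02 to -0.90). Of the miRNAs tied to lipid and insulin metabolism, 4 passed and 0 differed by 2-fold, beside 18.4% higher and 20.3% lower of all entries.

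**Figure D4:**
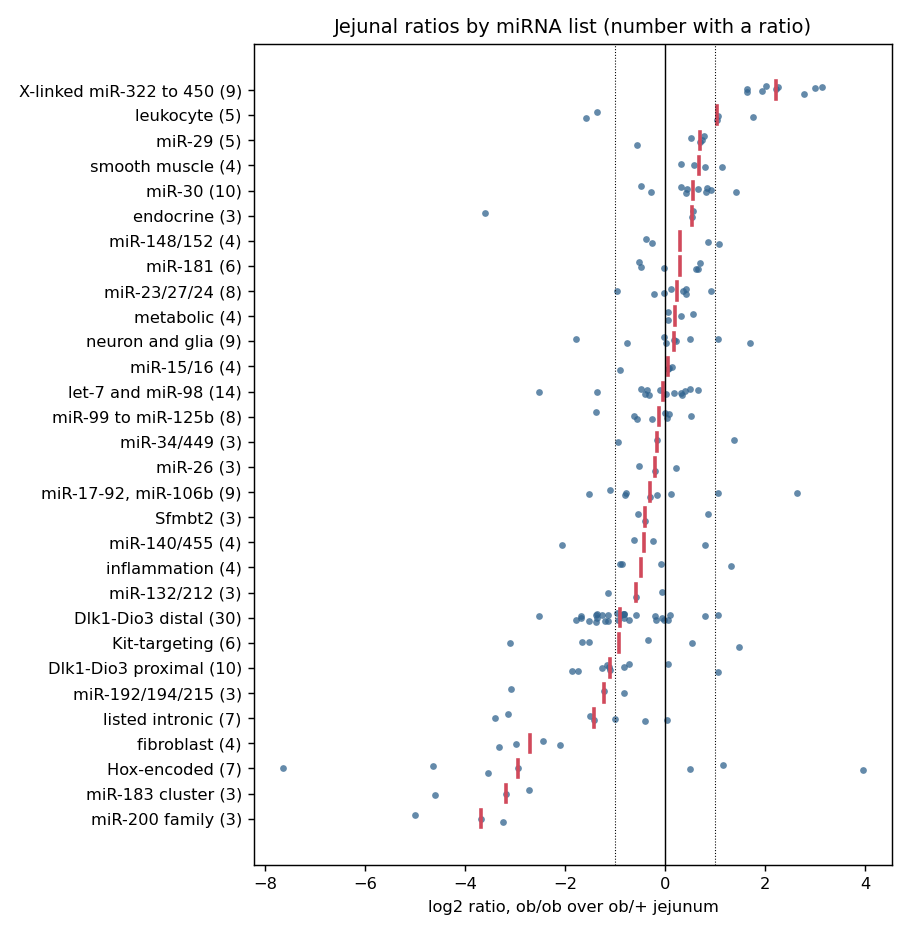
Log2 ratio (ob/ob over ob/+ jejunum) of each member of the miRNA lists with 3 or more ratios, with the number in parentheses; red bars are medians, dotted lines 2-fold, and entries with 0 counts in 1 library are drawn at their bound. The X-linked list lies highest at a median of 2.21, and the miR-200 family lowest at -3.69.

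Entries named after hairpins were mostly higher. Of 13 that passed, 9 were higher and 0 lower, with a median of 1.64, against 41 higher and 62 lower of 280 arms, with a median of -0.10. mir-6240 had 327 and 1027 counts, a log2 ratio of 1.71 (1.53 to 1.89), and mir-1954 had 40 and 149, a log2 ratio of 1.95 (1.44 to 2.50). mir-6236, the most counted of them in ob/+, had 779 and 600 counts, a log2 ratio of -0.32 (-0.48 to -0.16).

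The mature entries without an arm suffix lay between, with a median of 0.68. Of 27, 9 were higher and 3 lower, beside 18.4% and 20.3% of all entries. miR-3470b had 112 and 370 counts, a log2 ratio of 1.78 (1.47 to 2.10), and its hairpin entry mir-3470b had 28 and 88 (log2 ratio 1.71). Reads outside miRNA made up 77.5% of the mappable reads in ob/+ and 87.7% in ob/ob, and the part these reads had in the hairpin entries was not tested. Scaled to mappable reads, the hairpin entries had a median of 0.82, with 3 higher and 1 lower.

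The colon pair shares no library with the jejunal pair and was set beside it over the 319 entries with both ratios. Both pairs have the same genotypes, age range and pool size, so they may share mice and are not known to be independent. In the colon 68 of 321 entries (21.2%) were higher and 64 (19.9%) lower. Among the 319, 59 were higher in jejunum and 67 in colon, and 43 were higher in both, 72.9% of the jejunal and 64.2% of the colonic ones. Of the 64 of the 319 that were lower in each tissue 41 were shared, or 64.1%. A further 3 entries were lower in jejunum and higher in colon, and 0 the other way round. The log2 ratios had a Pearson correlation of 0.772 and a Spearman correlation of 0.751 across entries, which are not independent samples.

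Some miRNAs had unlike ratios in the 2 tissues, and the difference has 1 library in each of its 4 cells and was not tested. miR-200b-3p was at -5.01 in jejunum and -2.85 in colon, and miR-196a-5p at -4.65 and -2.89. miR-375-3p was at -3.62 and -1.68, and miR-183-5p at -4.61 and -2.53. These are all lower in ob/ob in both tissues, with the larger measured difference in jejunum. Of them, miR-183-5p and miR-375-3p rest on 3 and 4 counts in the ob/ob jejunum. In the ob/ob colon the whole miR-183 cluster summed to 6.3 CPM, under the 9.45 CPM that 3 counts are worth there. With so few counts, and no colonic intervals given, the values of miR-183-5p and miR-375-3p cannot show a difference between the tissues. The unsuffixed miR-3963 also had the lower ratio in jejunum, but was higher in ob/ob in both tissues, at 1.02 and 3.10.

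In the other direction, miR-335-5p was at 0.03 in jejunum and -1.20 in colon, and miR-140-3p, from Wwp2 and best known in cartilage, at -0.25 and -1.51. miR-221-5p was at -0.34 and -1.84. miR-615-3p was at 3.96 and 1.95, and miR-10a-3p at 1.16 and -0.05. For miR-10b-5p the colonic log2 ratio was -4.26, beside -3.55 in jejunum.

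**Figure D5:**
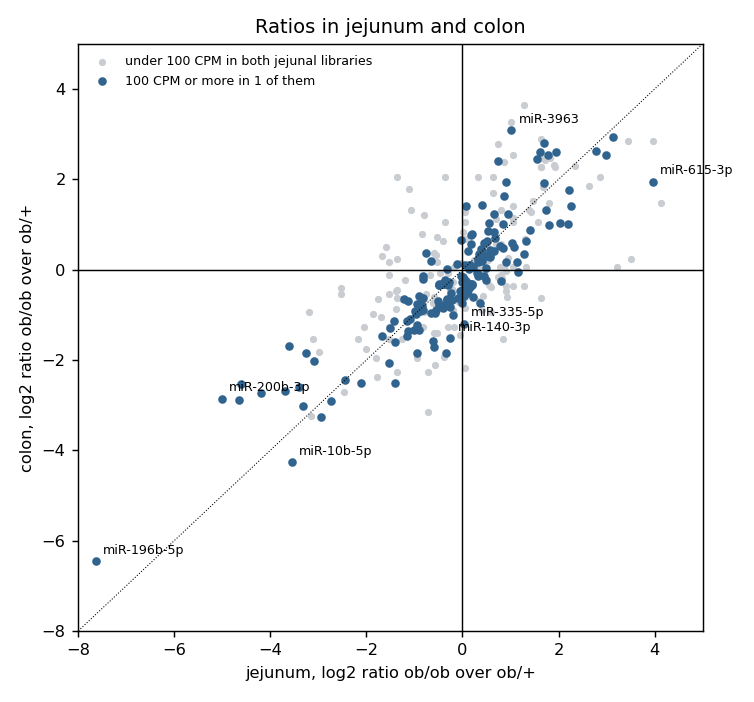
Log2 ratio of ob/ob over ob/+ in jejunum (x) and colon (y) for the 319 entries with both; dark points had 100 CPM or more in 1 jejunal library, and the dotted line is equality. Most points lie along the dotted line, with miR-196b-5p at the far lower left and miR-335-5p near 0 in jejunum but at -1.20 in colon.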

How the data were processed

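Small RNA of sorted GFP-positive cells was sequenced as 1 pooled library per genotype and tissue. Columns named for the small intestine were taken as the jejunal libraries. Per the file headers, the authors trimmed the 3′ adapter, dropped inserts shorter than 15 nt and matched the mappable reads to miRBase 20 entries of mm9. Which aligner, counter or scaling rule they used is not given in the sources used here. As deposited, the raw values are estimated counts (88.4% and 87.7% of the jejunal values above 0 were whole, within 1e-06). The authors' normalized values are a signal, the raw count times 1 factor per library (1.05 for ob/+ and 1.00 for ob/ob jejunum). The authors' deposited table also holds the genotype ratio of 235 miRNAs. The deposited read numbers per step are other values.

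For ratios, the estimated counts were taken to the nearest whole number and scaled with TMM over the 4 libraries (edgeR 4.0.16, R 4.3.3; factors 0.940 for ob/+ and 0.973 for ob/ob jejunum). Entries with a mean of 10 CPM over the 4 libraries were kept. Ratios carry an exact conditional binomial 95% interval (Python 3.11.15, scipy 1.17.1, numpy 2.4.6, pandas 2.3.3), shares an exact binomial (Clopper-Pearson) interval, and figures used matplotlib 3.10.9. Neither the intervals nor the floor of 3 counts cover more than counting error, because each side has 1 pooled library. The reads carry no molecular identifiers and so are not independent molecules, so even that error may be understated. With 1 library a side no count model was fitted. A ratio against 0 counts is a bound at 3 counts per library. The calculation was tested on simulated counts. Host genes came from the GENCODE annotation and sequences from the RefSeq table of build GRCm38.p6, which matched 263 of the 322 entries; the files' own build is mm9 and no coordinate was carried between them.

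The comparison, the 34 miRNA lists and the rule for named miRNAs were chosen with earlier results of these data known, so no list is independent evidence of its direction. Named were the 10 most abundant entries of either library, the 12 largest ratios in each direction at 100 CPM or more in 1 library, up to 4 abundant members per list, up to 5 entries per direction that differ most from colon, the 5 most counted hairpins with unequal arms and the 5 most counted hairpin entries; others were named after their values were seen. Alternatives were library totals, median-of-ratios factors (DESeq2 1.42.0, used for these factors only), TMM over the jejunal pair, mappable reads, the authors' values, no hairpin entries, no filter, a 100 CPM filter, a prior count of 2, and 1.5-fold, 4-fold and whole-interval thresholds. TMM over the filtered entries and library totals without miR-10b-5p were added after seeing the data.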

Additional observations from a re-analysis of the deposited data

Results flagged for a closer look

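In 3 entries the jejunal and colonic log2 ratios lay on opposite sides past 2-fold, each from few counts, and the difference was not tested. miR-223-3p, a myeloid miRNA, was at -1.36 in jejunum (8 counts in ob/+ and 3 in ob/ob) and at 2.05 in colon. miR-20a-5p, of the miR-17-92 cluster, was at -1.11 in jejunum (9 and 4 counts) and at 1.79 in colon. miR-1839-3p was at -1.08 in jejunum (11 and 5 counts) and at 1.32 in colon. The jejunal intervals of all 3 include equality, at -3.91 to 0.70, -3.27 to 0.73 and -2.96 to 0.56.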

How the results depend on the processing

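No paired analysis was possible because each genotype and tissue has 1 pooled library, which also leaves no replicate to leave out. Of the 57 named miRNAs at 2-fold or more, 0 changed sign under the other scalings, a prior count of 2 or with hairpin entries left out, which removes 3 of them; 39 stayed past 2-fold scaled to mappable reads and 50 with library totals without miR-10b-5p. Scaled to mappable reads, 20 entries were higher and 144 lower, 12 and 123 of them in both tissues, and list medians past 2-fold numbered 1 higher and 15 lower, against 2 and 7 in the reported analysis. With the authors' values, library totals without miR-10b-5p, no filter, a prior count of 2, a 100 CPM filter or a 4-fold threshold, 1 list was higher. At 100 CPM 20 entries were higher and 22 lower, 12 and 20 in both tissues, with a correlation between tissues of 0.898. At 1.5-fold 93 were higher and 99 lower, 74 lower in both tissues and 4 lists higher. At 4-fold 16 were higher and 27 lower, 7 and 16 in both tissues and 4 lists lower; with the whole interval past 2-fold, 21 and 25. The 10 most abundant entries held 76.5% of ob/+ and 77.0% of ob/ob counts without hairpin entries, and 17.2% and 9.45% of mappable reads. The leukocyte median turned to -0.17 with no filter. The thresholds change by construction, and a change of scaling moves every log2 ratio of a tissue by the same amount. Why the scalings differ, and the cause for the other settings, were not tested. The median over all entries was -0.10 with the authors' values, -0.15 with totals without miR-10b-5p and 0.18 with TMM over the filtered entries. Depth limits entries under 100 CPM most: a level at 0 counts may lie anywhere up to 6.84 CPM in ob/+ or 7.12 CPM in ob/ob.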

Other observations

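Detection differed between the libraries among rare entries. 602 entries had at least 1 count in ob/+ and 683 in ob/ob; 479 were counted in both, 123 in ob/+ alone with at most 13 counts, and 204 in ob/ob alone with at most 11. Epithelial miRNAs outside the lists, named after their values were seen, were also at low counts in ob/ob: miR-203-3p had 52 and 19 counts, a log2 ratio of -1.40 (-2.24 to -0.61), and miR-205-5p had 15 counts and 1 count, a log2 ratio of -3.85 (-9.25 to -1.15).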
